A study of Mus musculus with 12 samples.

Results

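Classical MHC class I molecules display peptides from inside the cell to CD8+ T cells. A heavy chain, in these data H2-K1 or H2-D1, pairs with the light chain B2m in the endoplasmic reticulum (ER). Peptides reach the ER through the transporter Tap1/Tap2, are trimmed by the aminopeptidase Erap1, and are loaded with the help of tapasin (Tapbp), the tapasin-related editor Tapbpl and the disulfide isomerase Pdia3, while Nlrc5 is a transactivator of class I genes that acts at their promoters. These 10 genes were chosen by symbol, with earlier results of these data known. All 10 of them were found among the 55401 genes of the table and passed the filter on low counts that left 20818 genes.

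The libraries came from 12 mouse tumors, 3 in each of 4 groups, taken at day 21 after injection of 125000 TC2Ras cells, a Ras-driven mouse prostate cancer line, under the skin of the flanks. Control tumors (labelled Control1) held TC2Ras cells alone and the mice drank water with 0 ppb inorganic arsenic (iAs). As300 tumors (labelled A300) were TC2Ras tumors of mice given 300 ppb iAs, ASC tumors had 1% GFP-carrying adipose-derived stromal cells (ASC) mixed in at injection with 0 ppb iAs, and ASC_As300 tumors (labelled ASC300) had both. All mice first received low-arsenic chow and purified water for 2 weeks. The ASC came from male C57BL/6 mice with GFP under the ubiquitin C promoter, the tumor cells are 1 line, and both flanks of a mouse were combined. The age and strain of the mice that carried the tumors are not given in the sources used here. The labels give the cell type as adipose-derived cells, but every library was made from a whole tumor. In such bulk samples, fewer cells of a type and less RNA per cell cannot be told apart. Nothing in the labels says more about how replicates were kept apart, so p-values measure the spread between these tumors.

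Total counts ran from 39157647 to 55168642 per tumor. Control replicate 1 stood apart from the other tumors: its 5 B cell markers summed to 171.7 CPM (the usual unit of counts scaled to an equal library size), against 2.0 to 12.1 in the other 11, and its epithelial markers to 361.8, against 26.9 to 118.8. Skeletal muscle markers were high in Control replicate 2, at 1461 CPM, and in As300 replicate 1, at 1478 CPM. The 9 genes called below were called in the ASC effect in each of 12 fits that left out 1 tumor, Control replicate 1 included.

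The stretches around the gene starts are shown first because several of these genes share short sequence elements, at matching distances in some. Heavy chain and B2m promoters are known to carry an interferon-response element (ISRE) and a module, often called S-X-Y, whose X2 box (TGACG) and Y box (ATTGG, or CCAAT on the other strand) are bound by the CREB/ATF and NF-Y factors with which Nlrc5 works. The letters searched on both strands of windows of 300 bases were GAAANNGAAA and GAANNGAAA for the ISRE, GGGANNCCC for NF-kB, TTCNNNGAA for the interferon gamma activation site, TGACG and CCAAT. Each line runs 5′ to 3′ from 200 bases before the RefSeq gene start to 20 after it, in build GRCm38.p6, at chr17:34000328-34000547 on the minus strand and, on the plus strand, chr17:35262894-35263113, chr2:122147487-122147706, chr13:74639653-74639872, chr17:34187356-34187575 and chr2:121413702-121413921. Capitals mark GGGANNCCC and the ISRE letters in either direction, and TGACG and ATTGG in the direction printed.
H2-K1: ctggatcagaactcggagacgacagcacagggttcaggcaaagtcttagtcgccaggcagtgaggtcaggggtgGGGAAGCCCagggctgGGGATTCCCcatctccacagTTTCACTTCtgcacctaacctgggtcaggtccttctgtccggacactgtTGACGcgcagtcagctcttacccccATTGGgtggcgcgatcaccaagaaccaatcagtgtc
H2-D1: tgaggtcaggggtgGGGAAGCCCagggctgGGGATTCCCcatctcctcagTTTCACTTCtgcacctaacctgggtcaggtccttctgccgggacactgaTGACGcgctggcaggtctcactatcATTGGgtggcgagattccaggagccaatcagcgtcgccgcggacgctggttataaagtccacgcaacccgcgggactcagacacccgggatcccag
B2m: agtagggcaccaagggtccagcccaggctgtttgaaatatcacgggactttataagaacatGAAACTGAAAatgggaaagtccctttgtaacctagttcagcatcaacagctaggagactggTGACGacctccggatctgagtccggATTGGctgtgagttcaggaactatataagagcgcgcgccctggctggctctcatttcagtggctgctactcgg
Erap1: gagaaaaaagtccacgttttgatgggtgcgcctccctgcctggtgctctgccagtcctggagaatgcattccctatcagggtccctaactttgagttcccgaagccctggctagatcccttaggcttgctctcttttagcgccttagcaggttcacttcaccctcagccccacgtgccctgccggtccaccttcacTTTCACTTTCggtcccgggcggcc
Tap1: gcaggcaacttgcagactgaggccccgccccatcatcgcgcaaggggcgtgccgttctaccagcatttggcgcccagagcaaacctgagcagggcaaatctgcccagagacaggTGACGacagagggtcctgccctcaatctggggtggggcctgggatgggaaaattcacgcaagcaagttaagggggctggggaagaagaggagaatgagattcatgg
Pdia3: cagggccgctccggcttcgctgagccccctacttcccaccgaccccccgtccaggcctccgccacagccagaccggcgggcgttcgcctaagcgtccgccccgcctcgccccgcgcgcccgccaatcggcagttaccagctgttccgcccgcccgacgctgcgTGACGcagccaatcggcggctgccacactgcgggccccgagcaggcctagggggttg

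H2-K1 and H2-D1 shared 104 of 115 bases (90.4%) from the first GGGANNCCC to the end of ATTGG, aligned with no gap. Each had 2 places with GGGANNCCC, which 5.66% of 32851 windows hold, and 1 with GAANNGAAA, held by 7.52%. B2m had GAAACTGAAA and Erap1 TTTCACTTTC, both matches to GAAANNGAAA, which is in 3.44% of windows. In H2-K1, H2-D1 and B2m, ATTGG followed TGACG at 25 bases, start to start, a spacing present in 31 of 32851 windows (0.0944%). The windows of Tap1, Tapbp and Pdia3 held no match to the ISRE or NF-kB letters, and sequence outside the windows was not searched. Pdia3 held TGACG, as do 20.8% of windows, and CCAAT, as do 37.4%. No member window held TTCNNNGAA, found in 8.30%, which says only that these letters are absent from these windows. H2-K1 had another RefSeq window with the same matches, which is not shown. The promoter table had no entry for Tap2, Tapbpl or Nlrc5.

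In GENCODE M21 (GRCm38), to which the genes were matched by Ensembl ID, 5 of the 10 genes lie in the MHC region of chromosome 17. They are H2-K1 (chr17:33996017-34000347), H2-D1 (chr17:35262730-35267499), Tap1 (chr17:34187553-34197225), Tap2 (chr17:34203527-34216321) and Tapbp (chr17:33915899-33929292). B2m (chr2:122147686-122153083) and Pdia3 (chr2:121413775-121438687) are on chromosome 2, Tapbpl (chr6:125223933-125231860), Nlrc5 (chr8:94434356-94527272) and Erap1 (chr13:74639568-74693201) on others. All 10 are protein coding. The stretches printed for H2-D1 and Erap1, and the Tapbp window, lie inside these GENCODE spans, as the RefSeq starts used are further into the genes.

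Tumors with ASC held 1.94 to 5.01 times as much RNA of 9 of the 10 genes as tumors without, averaged over both iAs levels, and Pdia3 did not pass the test. The question of this comparison was what ASC at injection changed in the tumor. A gene was called where edgeR's quasi-likelihood test gave a Benjamini-Hochberg adjusted p under 0.05 over all genes tested and at least a 1.5-fold change. In the ASC effect, averaged over both iAs levels, 9 of 10 genes were called up, against 1.36% of all genes tested, and the median log2 fold change of the 10 was 1.23, against 0.00 over all genes. For the same 9 genes, all 6 tumors with ASC lay above all 6 without, as for 1.68% of all genes. Nlrc5 rose by 2.32 on the log2 scale and Tap1 by 2.22, a gap within their standard errors, and Tap2 by 1.74. Tap1 had the larger value in both comparisons with Control and Nlrc5 in that with As300. The smallest called change was that of B2m, at 0.95. All 3 comparisons within the design gave 9 of 10, with 0.706% of all genes called up in ASC against Control, 0.783% in ASC_As300 against Control and 0.793% in ASC_As300 against As300. The first 2 of these share the Control tumors, and the last 2 share the ASC_As300 tumors. ASC_As300 against Control differs in iAs as well as in ASC.

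**Figure D1:**
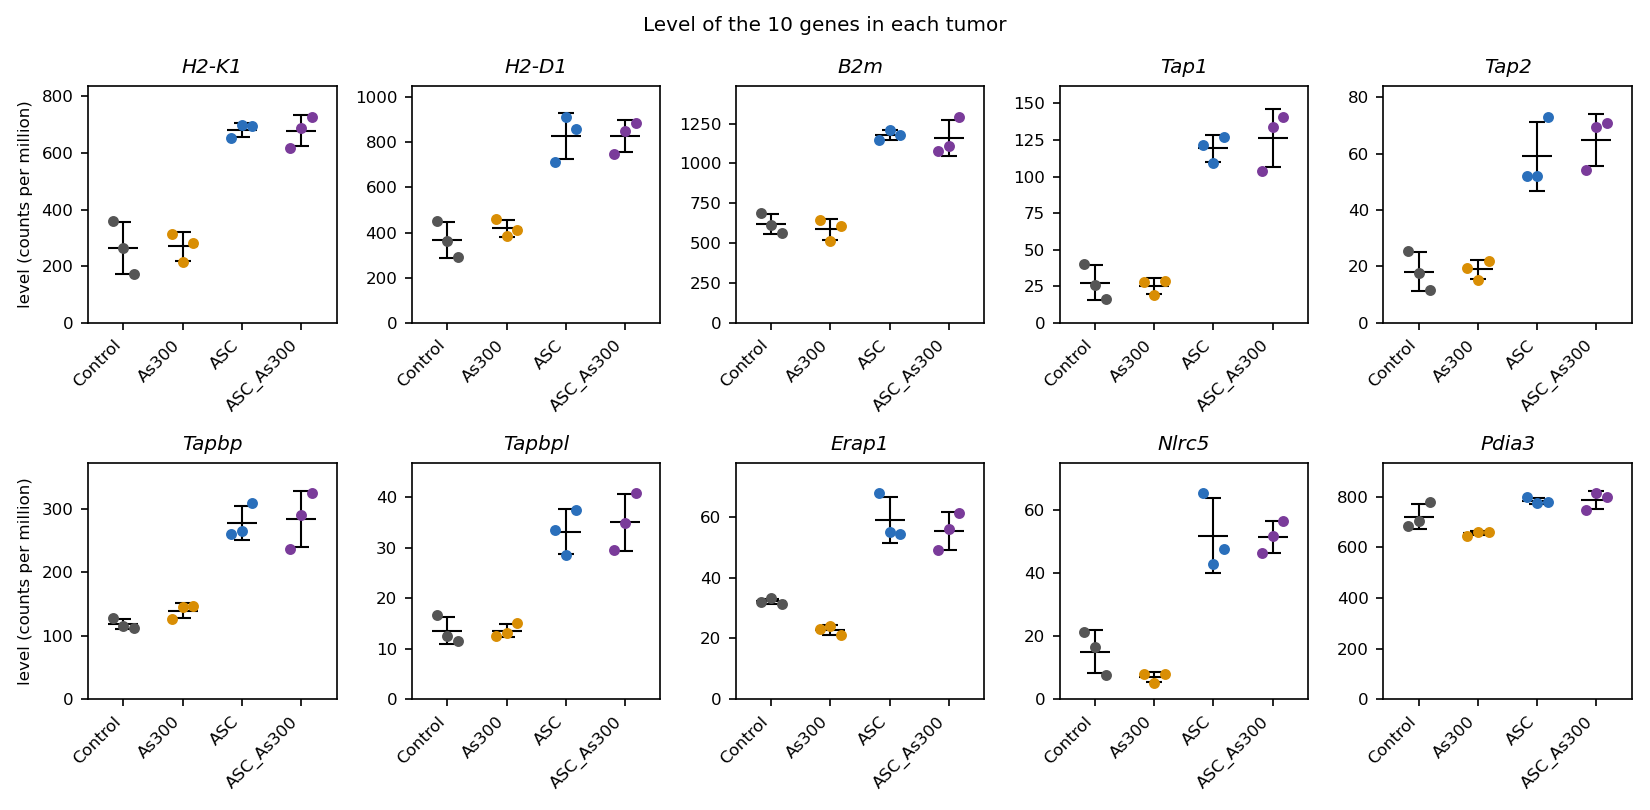
Level of each of the 10 genes in CPM (vertical axis from 0) in the 12 tumors, by group, with points for tumors, bars for the mean and whiskers for the SD of 3 tumors. For all genes but Pdia3, the 6 tumors with ASC lie above the 6 without.

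H2-K1, a classical heavy chain that presents peptide, stood at 358.5, 262.7 and 172.8 CPM in Control replicates 1 to 3. The As300 tumors held 315.0, 214.6 and 280.6 CPM. With ASC the levels were 652.0, 698.4 and 693.9 CPM, and with ASC and iAs 618.8, 688.7 and 727.2 CPM. The lowest tumor with ASC held more H2-K1 than the highest without, and neither Control and As300 nor ASC and ASC_As300 were apart. The change was 1.36 in ASC against Control (standard error 0.210, edgeR adjusted p = 0.00708) and 1.33 in ASC_As300 against As300 (standard error 0.210, edgeR adjusted p = 0.00790). Without As300 replicate 2 the latter missed the threshold (1.19, edgeR adjusted p = 0.0517), and a fit of the Control and ASC tumors alone gave an adjusted p of 0.0589 for the former.

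H2-D1, the other classical heavy chain, stood at 451.8, 361.4 and 291.3 CPM in Control and at 460.4, 385.4 and 412.3 CPM in As300. It reached 713.7, 913.0 and 860.4 CPM with ASC and 748.3, 848.8 and 885.3 CPM with ASC and iAs. The groups with and without ASC did not overlap. H2-D1 rose by 1.08 in the ASC effect (standard error 0.104, edgeR adjusted p = 7.40e-05). Of stretches of 50 bases in the transcripts of these genes, 9.63% of H2-K1 and 12.8% of H2-D1 also occur in other genes, most often H2-Q10 for H2-K1 (5.18%) and H2-Q1 for H2-D1 (5.87%), so part of their counts could be split among other genes.

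B2m, the light chain that every class I complex needs, stood at 689.1, 612.2 and 560.6 CPM in Control and 642.3, 514.7 and 606.2 CPM in As300. With ASC it reached 1146, 1207 and 1180 CPM, and with ASC and iAs 1078, 1109 and 1292 CPM. The groups with and without ASC were apart by more than the spread within either. B2m rose by 0.95 in the ASC effect (standard error 0.0759, edgeR adjusted p = 1.53e-05), and none of its 50-base stretches occurs in another gene.

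Tap1, a subunit of the transporter that brings peptides into the ER, stood at 39.9, 25.8 and 16.3 CPM in Control and at 27.8, 19.2 and 28.7 CPM in As300. With ASC it held 121.5, 109.4 and 127.3 CPM, and with ASC and iAs 103.5, 134.2 and 140.8 CPM. Every tumor with ASC held more Tap1 than any tumor without. Tap1 rose 4.67-fold in the ASC effect, or 2.22 on the log2 scale (standard error 0.188, edgeR adjusted p = 2.36e-05). Its gene overlaps that of Psmb9, on the opposite strand, by 212 exonic bases. Psmb9 itself rose by 2.06 (edgeR adjusted p = 1.92e-05), and whether the counting used strand is not given in the sources used here.

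Tap2, the other subunit of the transporter, held 25.6, 17.5 and 11.5 CPM in Control and 19.6, 15.4 and 21.9 CPM in As300. The ASC tumors had 52.1, 52.0 and 73.1 CPM and the ASC_As300 tumors 54.1, 69.5 and 70.8 CPM. Tap2 rose 3.33-fold in the ASC effect (standard error 0.177 on the log2 scale, edgeR adjusted p = 0.000123). In a fit of Control and ASC tumors alone its adjusted p was 0.0525.

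Tapbp, which bridges the heavy chain to the transporter, stood at 127.4, 115.9 and 112.8 CPM in Control, at 125.7, 145.7 and 146.2 CPM in As300, at 260.2, 265.1 and 309.0 CPM in ASC and at 236.4, 289.7 and 324.1 CPM in ASC_As300. It rose by 1.13 in the ASC effect (standard error 0.0827, edgeR adjusted p = 9.81e-06). Tapbpl, a peptide editor related to tapasin, held 16.6, 12.6 and 11.6 CPM in Control and 12.5, 13.2 and 15.1 CPM in As300. It held 33.6, 28.6 and 37.5 CPM with ASC and 29.5, 34.9 and 40.8 CPM with both. Its rise was 1.33 (standard error 0.118, edgeR adjusted p = 3.39e-05), and neither gene overlapped between tumors with and without ASC.

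Erap1, which trims peptides to the length class I binds, held 32.0, 33.2 and 31.5 CPM in Control and 23.1, 24.1 and 21.0 CPM in As300. The ASC tumors had 67.7, 54.8 and 54.4 CPM and the ASC_As300 tumors 48.9, 56.0 and 61.3 CPM. It rose by 1.08 in the ASC effect (standard error 0.0774, edgeR adjusted p = 8.47e-06). Erap1 overlaps Cast, on the opposite strand, by 834 exonic bases, and Cast was at 0.06 in the ASC effect (edgeR adjusted p = 0.834).

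Nlrc5, the transactivator, held 21.2, 16.6 and 7.7 CPM in Control and 8.1, 5.1 and 7.9 CPM in As300. It held 65.4, 42.9 and 47.6 CPM with ASC and 46.3, 51.9 and 56.5 CPM with ASC and iAs. It rose 5.01-fold in the ASC effect (log2 2.32, standard error 0.219, edgeR adjusted p = 5.92e-05). The rise was 1.78 in ASC against Control and 2.87 in ASC_As300 against As300. In ASC_As300 against Control, its adjusted p became 0.0516 without Control replicate 2 and 0.0711 without ASC_As300 replicate 3, and in ASC against Control 0.106 when those tumors were fitted alone. A noncoding gene on the opposite strand, 9330175E14Rik, shares 78 exonic bases with Nlrc5 and rose by 1.82 (edgeR adjusted p = 0.0245).

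Pdia3 is an ER disulfide isomerase that serves glycoproteins in general as well as the loading complex. It held 682.6, 703.1 and 777.9 CPM in Control, 645.9, 658.7 and 661.1 CPM in As300, 797.1, 773.8 and 777.5 CPM in ASC and 745.3, 812.7 and 799.0 CPM in ASC_As300. Control and ASC overlapped. All 3 ASC_As300 tumors lay above all 3 As300 tumors, a pattern that 11.3% of all genes shared, at 0.26 (edgeR adjusted p = 0.170). The ASC effect was 0.19 (standard error 0.0511, edgeR adjusted p = 0.102), which did not pass. Across the alternative edgeR and DESeq2 fits the ASC effect ran from 0.17 to 0.22, under 1.5-fold, with adjusted p of 0.0164 to 0.274.

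**Figure D2:**
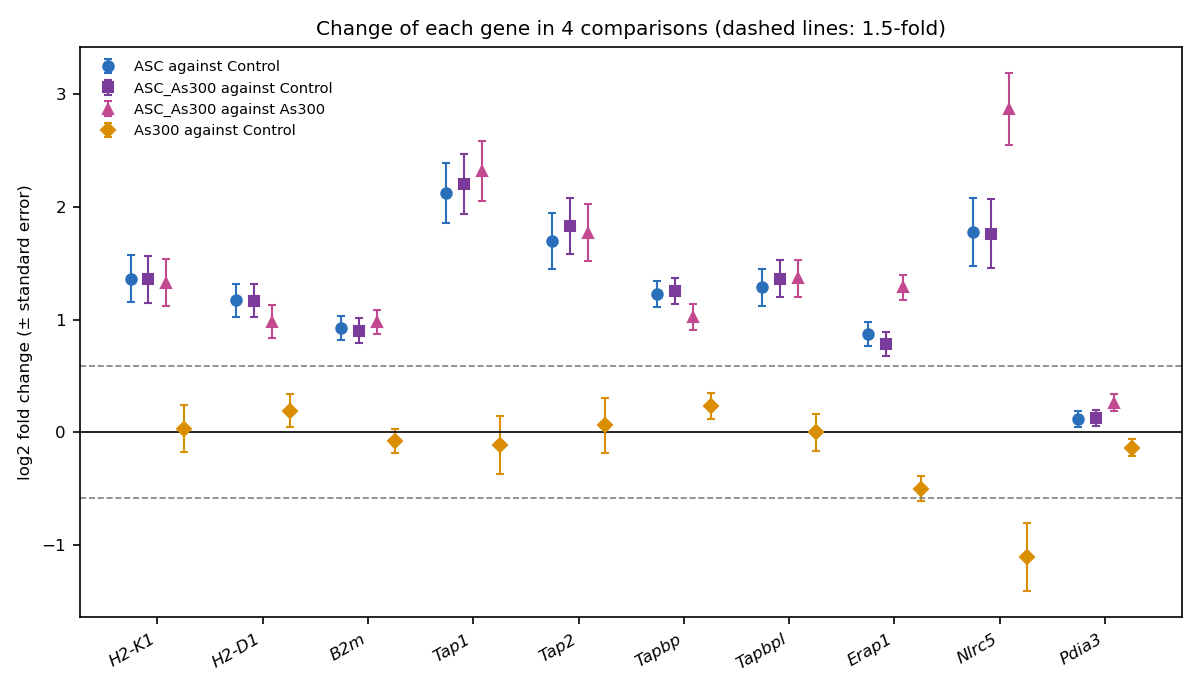
Log2 fold change (vertical axis) of the 10 genes in 4 comparisons, with standard errors as whiskers and dashed lines at 1.5-fold. The 3 comparisons of tumors with and without ASC lie above the upper line for 9 genes, and As300 against Control lies between the lines for 9 genes, Nlrc5 at -1.11 being the exception.

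No member was called for iAs alone, and Erap1 and Nlrc5 came nearest. In As300 against Control, 0 of 10 genes were called up and 0 down by edgeR against 0.701% and 0.355% of all genes tested, or 146 up and 74 down. These counts over all genes were unstable: both were 0 without any 1 Control tumor, and they were 279 and 115 without ASC replicate 1. At an unadjusted p under 0.05, 0 were higher and 2 lower, against 11.2% and 13% of all genes. Erap1 was lower in all 3 As300 tumors than in any Control tumor, by 0.50 (standard error 0.109, edgeR adjusted p = 0.0448), short of 1.5-fold. Nlrc5 was at 46.4% of Control, a log2 change of -1.11 (standard error 0.305, edgeR adjusted p = 0.0621), with overlapping groups. Cast, which shares exonic bases with Erap1 and held 132.3 to 177.8 CPM, was at -0.22 (edgeR adjusted p = 0.155). 9330175E14Rik, which shares exonic bases with Nlrc5, was at -1.19 (edgeR adjusted p = 0.197). The part of these overlaps in the values of Erap1 and Nlrc5 was not tested. DESeq2 gave Nlrc5 an adjusted p of 0.00290, and a filter of at least 10 counts in every tumor gave 0.0452. Across the alternative edgeR and DESeq2 fits Erap1 ran from -0.55 to -0.42, under 1.5-fold, with adjusted p of 0.00285 to 0.186. In fits leaving out 1 tumor, the edgeR adjusted p reached 0.186 for Erap1 and 0.232 for Nlrc5. The other 8 genes had log2 fold changes of -0.14 to 0.23. Pdia3 also lay lower in all 3 As300 tumors, a pattern that 15.4% of all genes shared, at -0.14 (edgeR adjusted p = 0.267).

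With ASC present, no difference between tumors with and without iAs was detected for these genes. In ASC_As300 against ASC, log2 fold changes ran from -0.09 to 0.13 and 0 of 10 genes were called by edgeR or DESeq2, against 0% of all genes in edgeR and 4 up and 7 down in DESeq2. At an unadjusted p under 0.05, 0 were higher and 0 lower, against 1.47% and 1.74% of all genes. The largest standard error, that of Nlrc5, was 0.293. The iAs effect over both ASC levels called 0 of 10 with either tool (0% of all genes in edgeR, 30 up and 84 down in DESeq2), with Erap1 at -0.30 (edgeR adjusted p = 0.181) and Nlrc5 at -0.56 (edgeR adjusted p = 0.240). These 2 were the genes lower at an unadjusted p under 0.05, and 0 were higher, against 8.46% and 7.51% of all genes. Across the alternative edgeR and DESeq2 fits of this effect, adjusted p ran from 0.0293 to 0.380 for Erap1 and from 0.0681 to 0.450 for Nlrc5. The ASC by iAs interaction, which asks whether the ASC effect differed with iAs, also called 0 of 10 with either tool (0% of all genes in edgeR, 29 up and 145 down in DESeq2). At an unadjusted p under 0.05, 2 were positive and 0 negative, against 7.08% and 6.55% of all genes. Its largest values were 1.10 for Nlrc5 (unadjusted p = 0.0225, edgeR adjusted p = 0.322) and 0.41 for Erap1 (unadjusted p = 0.0190, edgeR adjusted p = 0.320).

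On a scale of CPM per kilobase of merged exons, the levels in Control ran from B2m at 722 ± 75.2 (SD, n = 3), Pdia3 at 230 ± 16.0, H2-D1 at 143 ± 31.2 and H2-K1 at 90.1 ± 31.6 to Tapbp at 32.7 ± 2.12. Tapbpl, Tap1, Tap2 and Erap1 followed between 4.43 and 5.79, and neighbours among them did not differ beyond their spread, while Nlrc5 was lowest at 1.79 ± 0.812. In ASC tumors H2-D1, at 321 ± 40.04, stood above Pdia3, at 249 ± 3.99, and H2-K1 reached 232 ± 8.72. Tap1, at 21.8 ± 1.67, then exceeded Tap2, at 15.6 ± 3.21, and Tapbpl, at 14.1 ± 1.90, a pair that did not differ beyond its spread. B2m stayed highest at 1369 ± 35.9 and Nlrc5 lowest at 6.12 ± 1.40. Together the 10 genes took 0.197% to 0.251% of all counts in tumors without ASC and 0.377% to 0.425% in tumors with ASC.

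The partners did not all rise by the same factor. Ratios of counts within a tumor, which need no scaling between tumors, were compared with exact two-sided permutation tests, 8 in all. ASC labels were exchanged within each iAs level, and iAs labels within each ASC level (400 permutations, smallest possible p = 0.005). Tap1 to Tap2 lay between 1.25 and 1.56 in tumors without ASC and between 1.74 and 2.33 with ASC. The log2 ratio was higher by 0.51 with ASC (exact permutation p = 0.005, adjusted 0.02), with all 6 tumors above the 6 without. H2-K1 plus H2-D1 to B2m was higher by 0.25 (exact permutation p = 0.005, adjusted 0.02) and H2-K1 to H2-D1 by 0.30 (exact permutation p = 0.01, adjusted 0.0267). The call for H2-K1 to H2-D1 was lost, at an adjusted p of 0.0533, without Control replicate 3, ASC replicate 1 or ASC replicate 3, and that for the heavy chains to B2m without ASC replicate 1 (0.0533), replicate 2 (0.07) or replicate 3 (0.07). Tapbp to Tapbpl was lower by 0.21 with ASC and did not pass (exact permutation p = 0.05, adjusted 0.1). None of the 4 ratios passed for iAs, with adjusted p of 0.2 to 0.435.

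**Figure D3:**
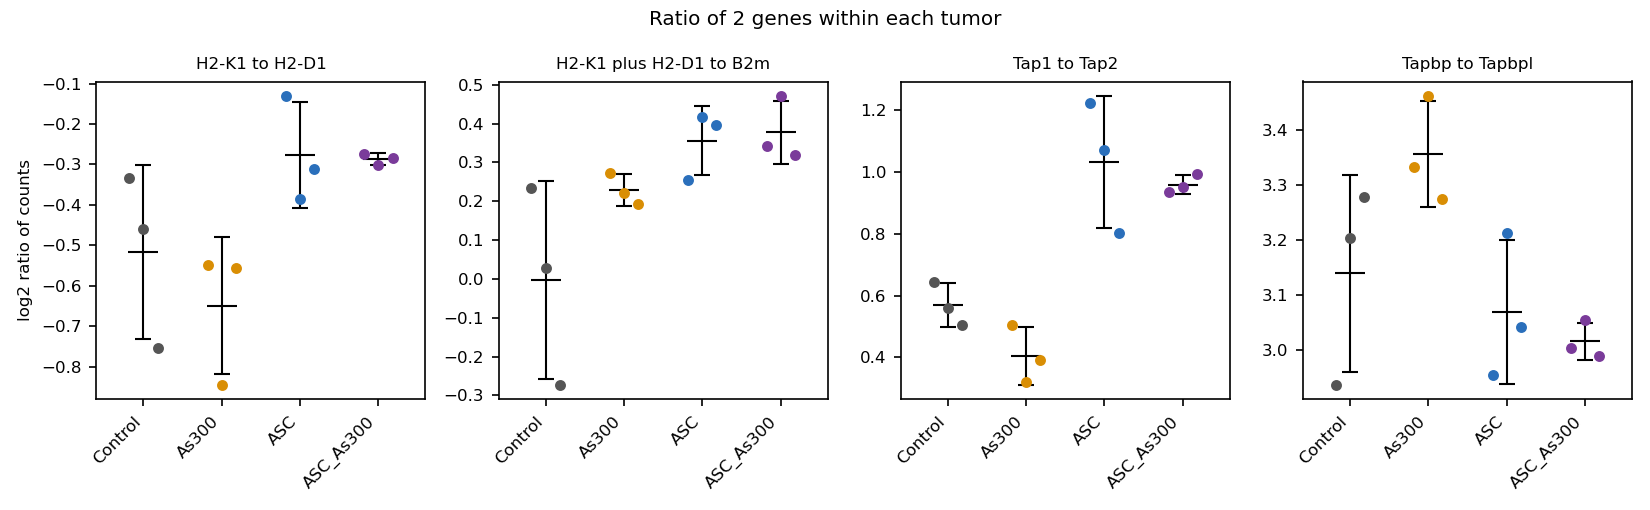
Log2 ratio of counts of 2 genes within each tumor (vertical axis) for 4 pairs, by group, with points for tumors, bars for the mean and whiskers for the SD of 3 tumors. Tap1 to Tap2 lies at 1.25 to 1.56 on the linear scale in the 6 tumors without ASC and at 1.74 to 2.33 in the 6 with ASC.

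The proteasome makes the peptides that Tap1/Tap2 carry, and interferon replaces its catalytic subunits with immunoproteasome ones. All 5 genes of the immunoproteasome and its activator PA28 were called up in the ASC effect, with a median log2 fold change of 1.60. In each of the 3 comparisons within the design, 4 of the 5 were called up. Psmb8 went from 24.4 ± 9.68 CPM in Control and 24.1 ± 4.28 in As300 to 84.1 ± 9.66 in ASC and 89.0 ± 16.8 in ASC_As300 (SD, n = 3 each). Psmb9 was at 10.6 ± 4.33, 9.93 ± 0.999, 45.4 ± 3.09 and 40.4 ± 7.56 CPM in the same order, and Psmb10 at 36.8 ± 4.82, 47.6 ± 0.869, 124 ± 30.8 and 130 ± 23.3 CPM. The 3 constitutive catalytic subunits they replace were not called in the ASC effect, with changes of -0.03 to 0.11. In As300 against Control all 3 were higher, by 0.26 to 0.62, and 1 was called up, against 0.701% of all genes. They were higher by 0.07 to 0.44 in ASC against Control, with 0 called. In the ASC effect, none of 11 ER chaperones and quality control genes was called. Pdia6, at 0.31, Calr, at 0.29, and Pdia4, at 0.27, had edgeR adjusted p of 0.00613, 0.0141 and 0.0276 but stayed under 1.5-fold. None of 6 cytosolic and endosomal peptidases was called either, with Lap3 at 0.16 and a range of -0.10 to 0.16.

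Of 11 transcription regulators of class I, 1 was called up. Irf1, a factor that binds ISRE letters, rose from 57.5 ± 9.34 CPM in Control and 54.7 ± 4.28 in As300 to 162 ± 17.2 in ASC and 172 ± 16.6 in ASC_As300 (log2 1.57, edgeR adjusted p = 1.37e-06). Irf2 was at 0.35 (edgeR adjusted p = 0.00749), under 1.5-fold. The RFX, NF-Y and CREB subunits that occupy the S-X-Y module, and the NF-kB subunits Nfkb1 and Rela, ranged from -0.07 to 0.10. Ifng, the ligand, was called up (log2 3.63, edgeR adjusted p = 0.00385), at 0.140 ± 0.0785 CPM in Control, 0.235 ± 0.211 in As300, 2.09 ± 0.324 in ASC and 2.53 ± 0.875 in ASC_As300. Beyond the ASC effect, Ifng was called in ASC_As300 against Control (4.14), but not in ASC against Control (3.86) or ASC_As300 against As300 (3.41). Its receptors Ifngr1 and Ifngr2, at 0.06 and 0.07 in the ASC effect, were not called.

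Of 14 nonclassical class I genes tested, 3 were called up in each of the 3 comparisons within the design and 6 in the ASC effect. H2-T23, which encodes Qa-1, rose by 1.02 (edgeR adjusted p = 6.34e-05), H2-T22 by 0.97 (1.00e-05) and H2-Q4 by 1.29 (0.00226). Many of these genes are close copies of one another, so the split of reads among them is uncertain. Class II genes present peptides to CD4+ T cells. Of 9, 4 were called up in ASC against Control, 4 in ASC_As300 against Control and 6 in ASC_As300 against As300. In the ASC effect 7 were higher and 6 were called up, among them H2-DMb1 by 1.41, H2-Eb1 by 1.90 and H2-DMa by 1.23. The lowest class II gene was at -0.85. Ciita, the class II transactivator, was at 0.94 and did not pass (edgeR adjusted p = 0.520).

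**Figure D4:**
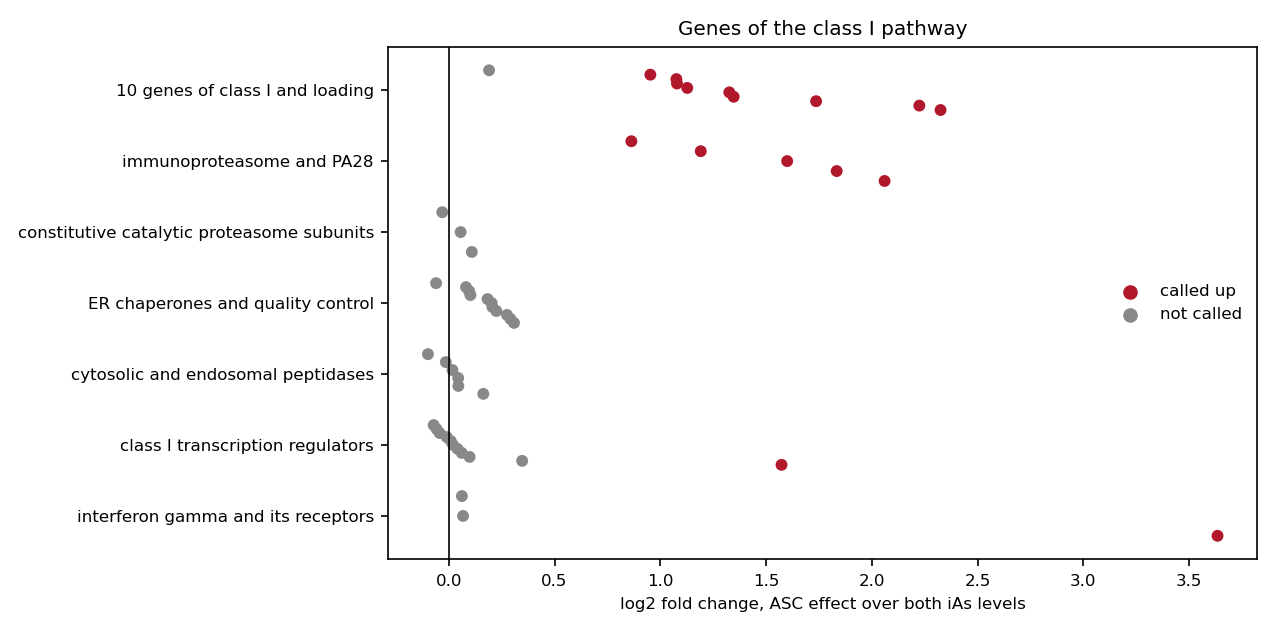
Log2 fold change in the ASC effect (horizontal axis) of each gene in 7 gene lists of the class I pathway, with 1 point per gene and called genes in red. All 5 immunoproteasome and PA28 genes are called, against 0 of 11 ER chaperones and 0 of 3 constitutive subunits.

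Markers of other cells moved with these genes in part. The 6 T cell markers summed to 29.9 to 52.6 CPM in tumors with ASC and to 8.6 to 12.3 CPM in 5 of the 6 without, and 1 of the 6, Cd8a, was called up (log2 2.20, edgeR adjusted p = 0.0381). Control replicate 1 was the exception, with 56.8 CPM of T cell markers, more than any tumor with ASC. Its Tap1, at 39.9 CPM, its H2-K1, at 358.5 CPM, and its Nlrc5, at 21.2 CPM, were each below all 6 tumors with ASC and each the highest of the 6 tumors without ASC, as were its B2m, Tap2 and Tapbpl. Dendritic cell markers summed to 34.4 to 50.9 CPM with ASC and 21.5 to 33.3 CPM without, with 2 of 5 called up (Itgax by 0.97 and Batf3 by 0.81). None of the NK, B, plasma cell, macrophage, neutrophil, stromal, endothelial, adipocyte or skeletal muscle markers was called, nor was the leukocyte gene Ptprc, at 0.48 (edgeR adjusted p = 0.432). Of the epithelial markers, Krt8 was called down, by -2.03, and of the 5 neuronal markers, whose median was -0.24, Tubb3 was called up, by 1.18. The part of other cell types in the levels of the 10 genes was not tested.

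**Figure D5:**
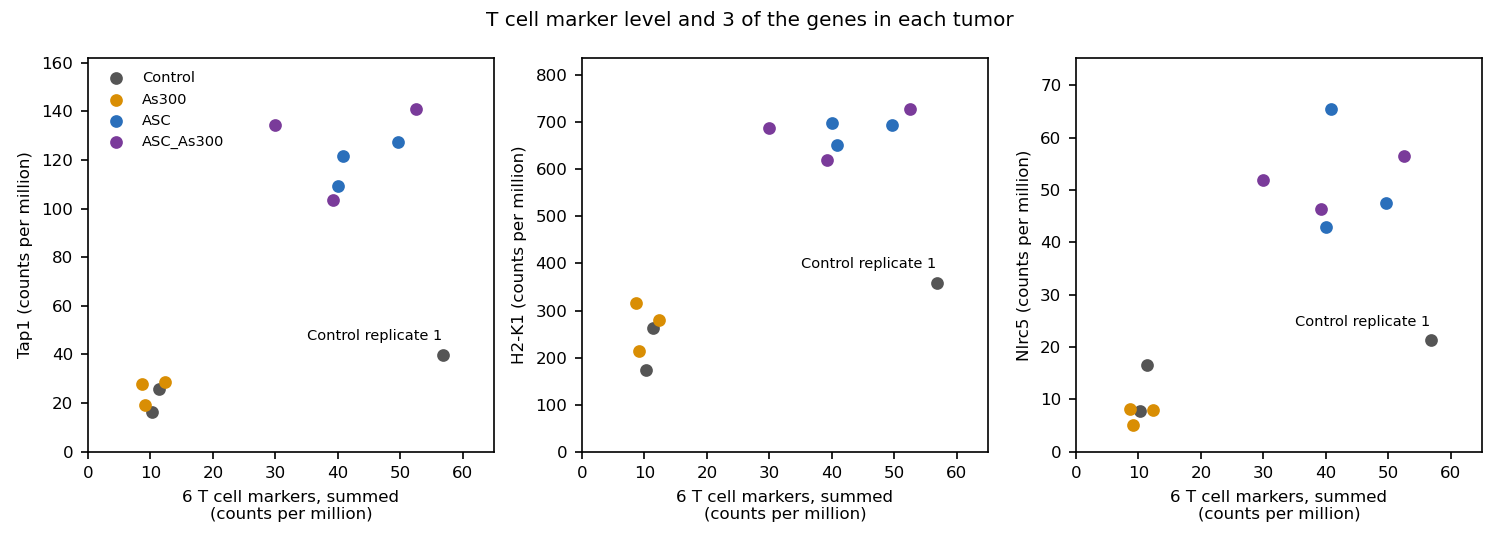
Levels of Tap1, H2-K1 and Nlrc5 (vertical axes, CPM) against the summed level of 6 T cell markers (horizontal axis, CPM), with 1 point per tumor. Control replicate 1 has 56.8 CPM of T cell markers and in all 3 panels lies below the 6 tumors with ASC and above the other 5 without.

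The genes most like a member over the 12 tumors were found by the mean absolute difference of standardized log2 CPM. Pairs of genes drawn at random differed by a median of 1.10. The genes named below are the nearest among 20789, so distances under that median follow from the choice and test nothing. Nearest to H2-K1 were Tap1 (0.0905), Psmb8 (0.101) and H2-DMb1 (0.102). Nearest to Tap1 were Psmb8 (0.0651), Ifi47 (0.0656) and Tgtp1 (0.0817), the last pair being interferon-inducible GTPases. Nearest to Nlrc5 were the guanylate-binding protein genes Gbp7 (0.138), Gbp5 (0.139) and Gbp4. Nearest to Pdia3 were Rcn1 (0.270), Aida (0.295) and Inpp1 (0.295), at wider distances than those of the genes named for H2-K1, Tap1 and Nlrc5.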

How the data were processed

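RNA of 12 tumors was sequenced from stranded poly(A) libraries on an Illumina NovaSeq. The authors trimmed the reads, aligned them and counted them per gene, and deposited whole-number counts with no normalization. The submitters' processing notes name cutadapt 1.1.0, HISAT2 2.0 and StringTie 1.3.4. The genome build is not given in the sources used here. Counts of 4 outnumbered counts of 3 or 5 in every tumor, so counts divided by 4 and rounded served as an alternative.

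Counts of 55401 genes were filtered with filterByExpr, scaled by TMM and tested with edgeR 4.0.16 (R 4.3.3) in 1 quasi-likelihood fit of all 12 tumors with a mean per group. Calls needed a Benjamini-Hochberg adjusted p under 0.05 over 20818 genes and at least a 1.5-fold change, as in the study's methods. CPM used TMM-adjusted library sizes. The fit was also run on simulated counts with the same spread for all genes and no outlying tumor. That run cannot speak to the effect of tumors such as Control replicate 1. Tumors were grouped by their labels. Named genes were all members, up to 3 genes per list with the smallest p in the ASC effect, and the 3 most like H2-K1, Tap1, Nlrc5 and Pdia3. In the text, ranges and further list genes were added after their values were seen. Another class I regulator, outside the 11 counted, is not reported here. The members and lists were chosen with earlier results of these data known. DESeq2 1.42.0, other scalings and filters, and fits leaving out each tumor were alternatives. Promoter sequences were RefSeq's (GRCm38.p6).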

Additional observations from a re-analysis of the deposited data

How the results depend on the processing

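Among the alternatives run, the counts of called members kept their size, 9 in each of the 4 comparisons of tumors with and without ASC, apart from fits leaving out 1 tumor, where they lay between 8 and 9, and ASC against Control fitted on its own tumors alone, which called 6 (H2-K1, Tap2 and Nlrc5 lost). In As300 against Control the count called down became 1 with DESeq2, with a filter of at least 10 counts in every tumor (Nlrc5 in both) and with no minimum fold change (Erap1). Leaving out 1 tumor, the ASC difference of log2 ratios ran from 0.24 to 0.35 for H2-K1 to H2-D1, 0.19 to 0.31 for the heavy chains to B2m, 0.46 to 0.57 for Tap1 to Tap2 and -0.26 to -0.17 for Tapbp to Tapbpl, which passed without Control replicate 1 (adjusted p = 0.03 in the exact permutation test). The iAs difference of Tap1 to Tap2 ran from -0.18 to -0.071 and passed without ASC replicate 3 (adjusted p = 0.02 in the exact permutation test). The cause of these changes was not tested. Of 1650 refitted member values, 73 changed sign, none in a comparison of tumors with and without ASC and none of a called gene.

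Same-numbered tumors of different groups did not deviate together: the correlations of 18 such pairs lay between -0.12 and 0.17, with 2 over 0.1. With the replicate block, the ASC effect called 9 members up and As300 against Control 0. With 3 tumors a group, small differences between members would be missed, and counts of H2-K1 and H2-D1 may be shared with other genes.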
